A study of Arabidopsis thaliana with 6 samples.

Results

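The genes described are 10 Arabidopsis thaliana loci known for their transcript response to sulfur deficiency: SDI1, SDI2, LSU1, LSU2, LSU3, LSU4, SLIM1, BGLU28, BGLU30 and GGCT2;1. They were chosen by locus name, with earlier results of these data known. All 10 were found among the 33977 IDs that each count file lists. Messenger RNA was sequenced from whole plants of the Col-0 accession, 3 samples per group, grown for 10 days at 22 °C in days of 16 h light and 8 h dark. The control plants, labelled Mock, grew on half-strength MS, a mineral plant medium that contains sulfate, and the treated plants grew on the same medium with 1.5 mM CsCl (cesium chloride). Neither the medium's sulfate nor the plants' sulfur content is given in the labels, so no sample is a sulfur-deprived reference.

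When sulfate runs short, Arabidopsis raises transcripts that take up sulfate, spare it and recover it from stored compounds. SLIM1, a transcription factor of the EIN3 family (also called EIL3), controls much of this response, and the precursor O-acetylserine, which accumulates when sulfide is lacking, induces a small co-regulated set of genes. SDI1 and SDI2 restrain the synthesis of methionine-derived glucosinolates, sulfur-rich defence compounds, LSU proteins are small coiled-coil proteins that bind many partners, BGLU28 and BGLU30 are beta-glucosidases that break glucosinolates down, and GGCT2;1 breaks down glutathione.

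With CsCl, 4 of the 10 genes were lower and none was higher: SDI1, LSU3, LSU1 and LSU2 fell by between 0.71 and 1.19 on the log2 scale. The test was edgeR's quasi-likelihood test with Benjamini-Hochberg adjustment over all 21005 genes tested, at an adjusted p under 0.05, and all 10 genes passed its filter on low counts. Of all genes tested, 1.32% were lower and 0.843% higher by the same rule. The remaining 6 genes, SDI2, LSU4, SLIM1, BGLU28, BGLU30 and GGCT2;1, did not pass. The median log2 fold change was -0.29 over the 10 genes and 0.0052 over all genes tested, and 9 of the 10 fold changes were below 0, against 48.6% over all genes. In 5 of the 10 genes all CsCl libraries lay below all control libraries, which held for 9.75% of all genes tested. The 10 were chosen with earlier results of these data known, so these shares describe the set and do not test it. The labels do not state if a group's samples were sown apart, so p-values here cover sample-to-sample spread that could be technical in part.

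**Figure D1:**
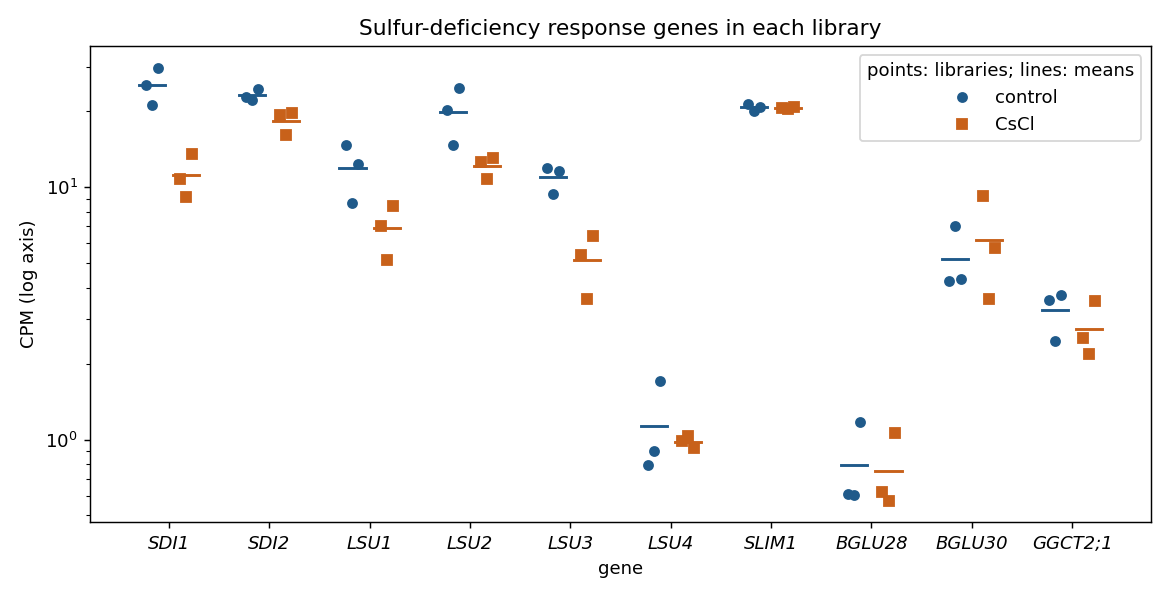
CPM (counts relative to the TMM-scaled library, log axis) of the 10 genes in each library, with control libraries as circles, CsCl libraries as squares and group means as lines. The 3 CsCl libraries lie below the 3 control libraries for SDI1, SDI2, LSU1, LSU2 and LSU3, and the groups overlap for the other genes.

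**Figure D2:**
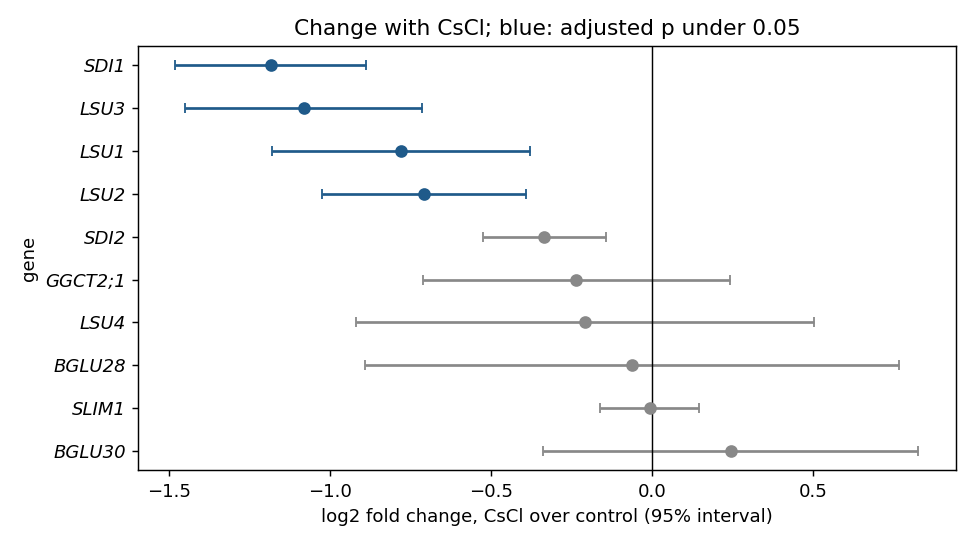
Log2 fold change of each of the 10 genes (CsCl over control, x axis) with its 95% interval from the edgeR fit, ordered by size, with genes past the adjusted p of 0.05 in blue. SDI1 is at -1.19 and BGLU30, at the other end, at 0.24.

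The libraries held between 32075069 and 44108369 counts, with CsCl replicate 3 the deepest, and CPM are scaled to TMM-adjusted library sizes. Between 65.5% and 73.4% of the counts from 1 to 50 were even in each library, which would arise if both mates of a read pair were counted, and a low count may then rest on fewer fragments than it shows. LSU4 and BGLU28, the rarest of the 10, had even counts in 6 of 6 libraries. Within a group, most of the 10 genes ranked the libraries alike. Control replicate 2 was the lowest control library for 8 of the 10 genes, CsCl replicate 2 the lowest CsCl library for 9, and CsCl replicate 3 the highest CsCl library for 8. In each of the 4 genes that fell, replicate 2 was the lowest library of both groups. The share of all tested genes that rank the libraries this way was not counted, so this order is not shown to be particular to the 10.

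SDI1 (AT5G48850), the gene of a tetratricopeptide-repeat protein that binds the glucosinolate regulator MYB28, showed the largest fall of the 10. It stood at 25.5, 21.2 and 29.8 CPM in the control libraries and at 10.8, 9.17 and 13.5 CPM with CsCl. Every CsCl library lay well below the lowest control library. The log2 fold change was -1.19 with an SE of 0.14 (edgeR adjusted p = 0.000396). Only 0.0857% of all tested genes had a lower fold change. The call was kept under all 12 alternatives tried, at -1.36 to -1.06.

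SDI2 (AT1G04770), the closest match to SDI1 among all other transcripts, showed a smaller difference that did not pass. Its values were 22.8, 22.2 and 24.6 CPM in controls and 19.3, 16.1 and 19.7 CPM with CsCl. The groups did not overlap, but the log2 fold change of -0.34 ± 0.089 (SE) stayed short of the threshold (edgeR adjusted p = 0.0725). DESeq2 called it lower (adjusted p = 0.0495), as did edgeR without the filter (adjusted p = 0.0215), and it ran up to an adjusted p of 0.32 over the alternatives. Relative to SDI2, SDI1 went from a log2 ratio of 0.12 ± 0.17 in controls to -0.73 ± 0.16 with CsCl (SD, n = 3), a difference of -0.86. An exact two-sided permutation test of that difference gave p = 0.1, the smallest that 3 against 3 samples can give, and likewise 0.1 adjusted over the 3 paralog pairs compared. SDI2 shares 352 of its 1284 exon bases with VAMP726 (AT1G04760) on the opposite strand, and because the strand setting of the counting is unknown, reads from the shared stretch cannot be assigned. VAMP726 itself had low values, between 1.47 and 2.38 CPM in all libraries. Of the other 3 genes of the SDI-type (MS5-like) family, AT3G51280 was measured at 9.46 ± 0.626 CPM in controls and 10.5 ± 0.740 CPM with CsCl (edgeR adjusted p = 0.557). The meiosis gene TDM1 (AT4G20900) and AT5G44330 were too rare to test.

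The LSU genes form 2 tandem pairs. LSU1 and LSU3 lie on chromosome 3 with 1760 bases between them, LSU2 and LSU4 on chromosome 5 with 1914 bases between them, and no annotated gene stands between the members of either pair. Tandem partners are the most alike: the coding sequences of LSU1 and LSU3 were 83.8% identical and those of LSU2 and LSU4 88.9% identical, against 70.6% to 78.9% for the other pairs. The stretch of 60 coding bases with the most positions alike in all 4 genes is shown. It spans bases 157 to 216 of each coding sequence in RefSeq's TAIR10.1. How well reads of these genes can be told apart was not tested. Capitals mark the bases that differ from LSU1.
LSU1: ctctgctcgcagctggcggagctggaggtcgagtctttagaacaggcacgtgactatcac
LSU2: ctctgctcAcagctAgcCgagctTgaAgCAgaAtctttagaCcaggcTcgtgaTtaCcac
LSU3: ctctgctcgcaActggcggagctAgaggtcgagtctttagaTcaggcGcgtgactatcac
LSU4: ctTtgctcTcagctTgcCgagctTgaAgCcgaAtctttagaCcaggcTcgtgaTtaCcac
Of these 60 bases, 46 were the same in all 4 genes, and LSU3 differed from LSU1 at 4 bases, all of them at the last base of a codon. LSU2 and LSU4 each differed from LSU1 at 12 bases, of which 11 were at the last base of a codon. Over whole transcripts, no window of 100 aligned bases between an LSU gene and any other gene reached 95 identical bases (at most 89 for LSU1 and LSU3 and 92 for LSU2 and LSU4).

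LSU3 (AT3G49570) fell the most of the family. It stood at 11.9, 9.42 and 11.6 CPM in controls and at 5.40, 3.61 and 6.41 CPM with CsCl, without overlap. The log2 fold change was -1.08 with an SE of 0.17 (edgeR adjusted p = 0.00382), and the call was kept under all 12 alternatives. Its neighbour LSU1 (AT3G49580) stood at 14.6, 8.66 and 12.3 CPM in controls and at 7.04, 5.16 and 8.42 CPM with CsCl. The lowest control library, replicate 2, was only just above the highest CsCl library. LSU1 fell by 0.78 ± 0.19 on the log2 scale (SE, edgeR adjusted p = 0.0464). It lost that call when scaled by total counts alone (adjusted p = 0.0716) and without control replicate 1, control replicate 3, CsCl replicate 1 or CsCl replicate 2 (adjusted p = 0.098 to 0.216).

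LSU2 (AT5G24660), the most abundant of the family per length, stood at 20.3, 14.7 and 24.7 CPM in controls and at 12.7, 10.8 and 13.1 CPM with CsCl. The control libraries were spread more widely than the CsCl libraries and stayed above them. The log2 fold change was -0.71 with an SE of 0.15 (edgeR adjusted p = 0.022), and the call was lost without control replicate 3 or any 1 of the CsCl libraries (adjusted p = 0.0571 to 0.14). LSU4 (AT5G24655), its neighbour, was rare, with 26, 30 and 58 counts in controls and 32, 36 and 42 counts with CsCl. In controls 1 library, replicate 3, stood above the rest and the other two below the CsCl libraries. Its log2 fold change of -0.21 had a 95% interval of -0.92 to 0.50 (edgeR adjusted p = 0.83) and became 0.21 without control replicate 3, so at this depth neither a fall like that of LSU2 nor a small rise can be told apart.

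Per kilobase of exon, the 4 LSU transcripts together made up 58.2, 41.5 and 61.7 CPM per kb in the control libraries and 31.9, 25.1 and 35.2 CPM per kb with CsCl. The groups did not overlap, with means of 53.8 ± 10.8 and 30.7 ± 5.15 CPM per kb (SD, n = 3). LSU2 gave 44.7% ± 3.38 of the sum in controls and 48.5% ± 3.51 with CsCl, and LSU1 24.8% ± 3.12 and 25.0% ± 1.90. The share of LSU3 was 27.7% ± 2.63 in controls and 22.2% ± 2.62 with CsCl, and that of LSU4 2.75% ± 0.920 and 4.29% ± 0.985. The log2 ratio of LSU3 over LSU1 was lower by 0.34 with CsCl, and that of LSU4 over LSU2 higher by 0.56. Both gave p = 0.1 in the exact two-sided permutation test, the smallest possible here, so neither difference between neighbours can pass. In whole plants, fewer cells that express a gene and less transcript per cell cannot be told apart.

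**Figure D3:**
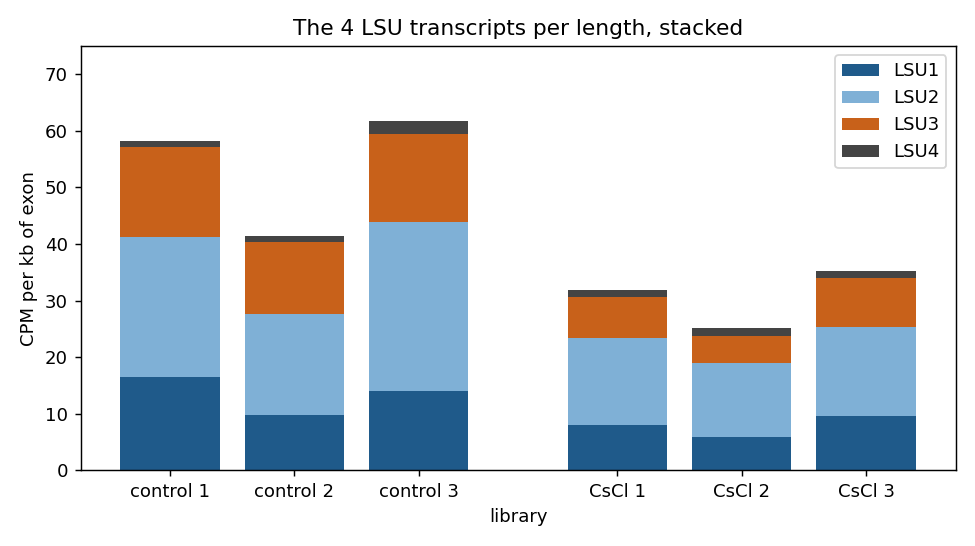
CPM per kb of exon (y axis) of LSU1, LSU2, LSU3 and LSU4, stacked, in each of the 6 libraries. The sum lies between 41.5 and 61.7 in controls and between 25.1 and 35.2 with CsCl, and LSU2 gives the largest share in every library.

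SLIM1 (AT1G73730), the regulator, was the most even of the 10 genes. It stood at 21.3, 20.1 and 20.8 CPM in controls and at 20.6, 20.5 and 20.8 CPM with CsCl. The groups overlapped fully, and the log2 fold change of -0.0079 had a 95% interval of -0.16 to 0.15 (edgeR adjusted p = 0.974), which corresponds to fold changes from 0.894 to 1.11. Transcript level says nothing about the activity of the protein. No member of the EIN3 family passed among 6 tested (edgeR; 0 also at an unadjusted p under 0.05). The ethylene regulators EIN3 (AT3G20770) and EIL1 (AT2G27050) had log2 fold changes of 0.054 and -0.058.

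The beta-glucosidase genes BGLU28 and BGLU30 did not pass the test. BGLU28 (AT2G44460) was rare, with 20, 20 and 40 counts in controls and 20, 20 and 48 counts with CsCl. Replicate 3 was the highest library of both groups. Its log2 fold change of -0.063 had a 95% interval of -0.89 to 0.77 (edgeR adjusted p = 0.961), so fold changes from 0.539 to 1.70 could not be told apart at this depth. BGLU30 (AT3G60140), also known as the dark-inducible gene DIN2, stood at 4.26, 7.01 and 4.35 CPM in controls and at 9.20, 3.61 and 5.77 CPM with CsCl. The CsCl libraries spanned the whole control range, and the log2 fold change of 0.24 (edgeR adjusted p = 0.743) became -0.14 without CsCl replicate 1. BGLU28 matches the neighbouring BGLU29 (AT2G44470) at 95 of 100 aligned bases in their closest window and BGLU30 matches it at 94, but BGLU29 had no more than 2 counts in any library.

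GGCT2;1 (AT5G26220), a gamma-glutamyl cyclotransferase that cleaves glutathione in the cytosol, stood at 3.56, 2.47 and 3.76 CPM in controls and at 2.53, 2.18 and 3.53 CPM with CsCl. The groups overlapped, and the log2 fold change of -0.24 had a 95% interval of -0.71 to 0.24 (edgeR adjusted p = 0.686). Its relatives GGCT2;2 (AT4G31290) and GGCT2;3 (AT1G44790) had log2 fold changes of -0.022 and -0.21 and did not pass either. Of 7 tested genes of glutathione breakdown 2 fell, the gamma-glutamyl peptidase gene GGP1 (AT4G30530) by 0.46 and the gamma-glutamyl transpeptidase gene GGT1 (AT4G39640) by 0.36 on the log2 scale, and none rose. With any 1 of the libraries other than control replicate 1 left out, 1 of the 7 was lower.

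Per kilobase of exon, the order of mean levels in controls was LSU2 at 24.2, SDI1 at 21.0, SDI2 at 18.1, LSU3 at 14.7, LSU1 at 13.4, SLIM1 at 8.27, GGCT2;1 at 2.67, BGLU30 at 2.23, LSU4 at 1.48 and BGLU28 at 0.364 CPM per kb. With CsCl it was LSU2 at 14.8, SDI2 at 14.3, SDI1 at 9.20, SLIM1 at 8.23, LSU1 at 7.75 and LSU3 at 6.91 CPM per kb, so that SDI1 stood below SDI2. In controls the gaps between SDI1 and either LSU2 or SDI2, between LSU3 and LSU1 and between GGCT2;1 and BGLU30 were within the SD over libraries, and with CsCl so were those between LSU2 and SDI2 and between neighbours in the run from SDI1 over SLIM1 and LSU1 to LSU3.

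Promoter sequence is shown for SDI1 and LSU1 to LSU3, which fell, and for LSU4, whose interval reached from a fall to a rise. The 250 bases before the annotated gene start were taken from RefSeq's TAIR10.1, 5′ to 3′ on the gene's strand, for SDI1 (chr5:19807854-19808103), LSU1 (chr3:18375941-18376190), LSU3 (chr3:18373148-18373397), LSU2 (chr5:8444102-8444351) and LSU4 (chr5:8441365-8441614), all on the minus strand. Capitals mark GAGAC or its reverse complement GTCTC, the core of the sulfur-responsive element first described in the promoter of the sulfate transporter gene SULTR1;1.
SDI1: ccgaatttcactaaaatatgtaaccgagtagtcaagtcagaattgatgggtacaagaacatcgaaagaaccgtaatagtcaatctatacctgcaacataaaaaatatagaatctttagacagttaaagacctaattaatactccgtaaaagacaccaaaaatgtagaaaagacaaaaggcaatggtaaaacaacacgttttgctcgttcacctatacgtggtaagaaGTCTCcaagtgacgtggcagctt
LSU1: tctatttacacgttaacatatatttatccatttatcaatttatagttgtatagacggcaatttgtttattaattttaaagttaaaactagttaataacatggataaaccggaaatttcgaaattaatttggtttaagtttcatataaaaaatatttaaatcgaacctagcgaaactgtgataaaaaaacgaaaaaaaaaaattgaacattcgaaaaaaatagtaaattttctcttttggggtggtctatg
LSU3: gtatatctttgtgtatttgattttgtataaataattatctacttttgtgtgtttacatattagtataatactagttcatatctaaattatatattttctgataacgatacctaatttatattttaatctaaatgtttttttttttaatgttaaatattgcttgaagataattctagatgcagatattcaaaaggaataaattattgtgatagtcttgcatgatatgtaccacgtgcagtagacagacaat
LSU2: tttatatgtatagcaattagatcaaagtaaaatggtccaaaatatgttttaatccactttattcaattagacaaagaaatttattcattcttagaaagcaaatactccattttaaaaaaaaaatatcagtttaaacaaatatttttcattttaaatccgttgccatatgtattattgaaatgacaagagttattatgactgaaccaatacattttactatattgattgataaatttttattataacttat
LSU4: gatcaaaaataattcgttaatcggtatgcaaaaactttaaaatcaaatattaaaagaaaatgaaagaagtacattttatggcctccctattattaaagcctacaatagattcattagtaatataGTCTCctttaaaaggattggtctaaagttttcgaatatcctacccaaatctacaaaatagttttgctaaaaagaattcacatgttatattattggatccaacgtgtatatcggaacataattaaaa
The core stood in the window of 6 of the 10 genes, once in each, and in 25.8% of 27443 promoters of protein-coding genes. It began 23 bases before the start of SDI1 and 126 bases before that of LSU4, and the other 4 were SLIM1, BGLU28, BGLU30 and GGCT2;1. Neither LSU1, LSU2 and LSU3 nor SDI2 had these letters in this window. Of the 4 genes that fell, SDI1 alone held the core in this window, which is close to the share over all promoters. Sequence further upstream was not read, and a role of the core was not tested.

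Genes that O-acetylserine induces together are SDI1, SDI2, LSU1, GGCT2;1, the APS reductase gene APR3 (AT4G21990) and the serine hydroxymethyltransferase gene SHM7 (AT1G36370). Of these 6, 4 fell (SDI1, LSU1, APR3 and SHM7), none rose, and all 6 fold changes were below 0, with a median of -0.39 on the log2 scale. APR3 stood at 146, 103 and 131 CPM in controls and at 98.9, 89.8 and 97.9 CPM with CsCl, which is -0.41 on the log2 scale with an SE of 0.098 (edgeR adjusted p = 0.0475), and lost its call in every fit that left out a library except that without control replicate 2, and when scaled by total counts alone. SHM7 fell by 0.37 ± 0.071 on the log2 scale (SE, edgeR adjusted p = 0.0115). Without CsCl replicate 2, only SDI1 of the 6 was lower.

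Some genes of sulfate uptake and reduction were lower as well. Of 12 tested sulfate transporter genes 4 fell and none rose: SULTR2;1 (AT5G10180), which loads sulfate in vascular tissue, by 0.42, the root uptake transporter SULTR1;2 (AT1G78000) by 0.41, and the vacuolar exporters SULTR4;1 (AT5G13550) by 0.34 and SULTR4;2 (AT3G12520) by 0.49 on the log2 scale. SULTR4;2 lost its call when scaled by total counts alone and, of the 6 libraries, without any but control replicate 2 and CsCl replicate 3. The other 8 did not pass. Among them, SULTR1;1 (AT4G08620) had a log2 fold change of -0.46 with all CsCl libraries below all controls (edgeR adjusted p = 0.257). SULTR3;2 (AT4G02700) and SULTR3;4 (AT3G15990) had 0.45 and 0.27 with all CsCl libraries above all controls (edgeR adjusted p = 0.241 and 0.199). Over the list the median was -0.073, and 2 members were lower without CsCl replicate 1 or 2. Of 12 tested genes of sulfate activation and reduction 6 fell and none rose, with a median of -0.33, and 3 did so without any 1 of the CsCl libraries. The smallest adjusted p were those of the APS kinase genes APK2 (AT4G39940), at -0.55, and APK1 (AT2G14750), at -0.43, and of the APS reductase gene APR1 (AT4G04610), at -0.54. SDI1 and LSU3 had larger fold changes than any tested gene of these 2 lists.

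Of the transcripts of the 3 MYB regulators of methionine-derived glucosinolate synthesis, 1 fell and 2 did not pass. An effect of SDI1 on these transcripts was not tested. MYB28 (AT5G61420), the partner that SDI1 binds, stood at 79.9 ± 6.57 CPM in controls and 80.1 ± 4.34 CPM with CsCl (SD, n = 3), and its fold change near 0 took either sign over the alternatives. MYB29 (AT5G07690) fell from 21.6 ± 1.50 to 14.9 ± 1.55 CPM, which is -0.53 on the log2 scale with an SE of 0.092 (edgeR adjusted p = 0.0071). MYB76 (AT5G07700) leaned lower, with a log2 fold change of -0.60 and an SE of 0.27, but did not pass (edgeR adjusted p = 0.318). It was rare, at 2.38, 2.23 and 2.41 CPM in controls and 0.988, 1.37 and 2.17 CPM with CsCl, without overlap.

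Among 12 tested beta-glucosidases of the families of BGLU28 and BGLU30, 2 fell and 1 rose. BGLU22 (AT1G66280) and PYK10 (AT3G09260), both of ER bodies in roots, fell by 0.46 and 0.38 on the log2 scale, and BGLU18 (AT1G52400), which acts in leaf ER bodies and releases abscisic acid, rose by 0.58. Without CsCl replicate 2 only 1 of them was lower, and BGLU18 lost its call without control replicate 2, control replicate 3 or CsCl replicate 3 and with DESeq2. Of 8 dark-inducible genes, the list that holds BGLU30, DIN11 (AT3G49620) was the 1 that rose, at a log2 fold change of 1.62, a call lost with any 1 of the 6 libraries left out. DIN11 was rare, with 12, 12 and 10 counts in controls and 40, 25 and 54 counts with CsCl. No dark-inducible gene fell.

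**Figure D4:**
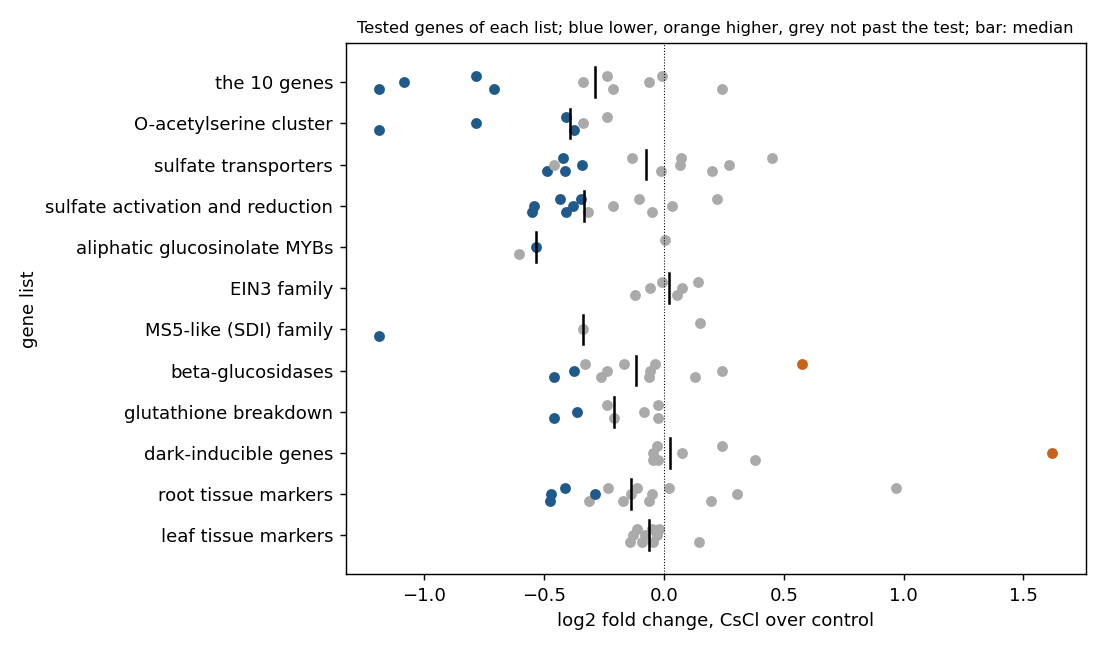
Log2 fold change (CsCl over control) of each tested gene of the 10 described and of 11 related lists, with genes past the test in blue (lower) or orange (higher) and the list's median as a bar. The 10 genes reach from -1.19 to 0.24, and the EIN3 family lies around 0.

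Of 15 tested root tissue markers 4 fell, none rose and 11 did not pass, with a median log2 fold change of -0.14 and 1 lower without CsCl replicate 2. Those that fell included the endodermal genes CASP1 (AT2G36100), CASP2 (AT3G11550) and PER64 (AT5G42180), which fell by 0.29, 0.47 and 0.47 on the log2 scale. CASP1 lost its call with any 1 library left out. Other endodermal genes did not pass: CASP4 (AT5G06200), CASP5 (AT5G15290), MYB36 (AT5G57620) and SCR (AT3G54220) had log2 fold changes of -0.31, -0.23, -0.14 and -0.051. ESB1 (AT2G28670) stood at 0.97 with all CsCl libraries above all controls (edgeR adjusted p = 0.289). It was rare, with 14, 9 and 8 counts in controls and 20, 19 and 30 counts with CsCl. The summed level of the list ran from 667 to 758 CPM in controls and from 658 to 663 CPM with CsCl, and no marker was at 0. Of 10 leaf tissue markers none passed (edgeR; 1 at an unadjusted p under 0.05), their median was -0.063, and their sum ran from 55990 to 62512 CPM in controls and from 54117 to 57213 CPM with CsCl. The part of tissue makeup in the fall of SDI1 and the LSU genes was not tested.

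The genes whose pattern over the 6 libraries was most like the average of the 10 were found among 15163 tested genes with a mean of at least 5 CPM. They were AT4G02530, the KDEL receptor gene ERD2B (AT3G25040), the ER co-chaperone gene P58IPK (AT5G03160), AT1G06690 and the small GTPase gene RAB7B (AT3G18820). The 6 libraries differ in group and depth. Over them, the Pearson r of these genes with the mean standardised log2 CPM of the 10 genes lay between 0.984 and 0.992. None passed the test, and their log2 fold changes lay between -0.15 and -0.080, so the likeness is in the order of the libraries, not in the size of the change. Between SDI1 and LSU3, r over the same libraries was 0.978, and 0.878 for deviations from the group means. Between SDI1 and BGLU30 it was -0.20.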

How the data were processed

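The authors deposited unnormalized counts for each gene in a file for each sample. Per the submitters' processing notes, the tools were FastQC, STAR, featureCounts and edgeR and the build TAIR10. Not given in the sources used here are the versions, the annotation, how strand was set and how multi-mapped reads were counted. The files carry no coordinates and every row names a gene. TAIR10.1 (RefSeq) gave names, exon lengths, coding sequences and promoters.

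Counts of 3 control and 3 CsCl samples were fitted with edgeR 4.0.16 in R 4.3.3 (filterByExpr, TMM, quasi-likelihood test, group as the only term). The 95% intervals use the fit's degrees of freedom. SE is the unshrunk coefficient over the root of F. The fit was first tested on simulated data. Sequences were compared with BLAST 2.17.0 and MAFFT 7.526, and paralog ratios had 0.5 counts added.

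Every pair of samples within a group differed beyond sampling noise (chi-square per gene of 6.39 to 13.1). Alternatives were RLE factors, total counts only, no filter, DESeq2 1.42.0, the replicate number as a block, halved counts and leaving out each library. The 10 genes and all lists were chosen with earlier results of these data known. Named besides the 10 were, per list, genes past the test (the 3 smallest adjusted p where more than 5 passed), fixed partners (APR3, SHM7, MYB28, MYB29, EIN3, EIL1, BGLU29, GGCT2;2, GGCT2;3) and the 5 genes nearest in pattern. MYB76, AT3G51280, TDM1, AT5G44330, SULTR1;1, SULTR3;2, SULTR3;4, CASP4, CASP5, MYB36, SCR and ESB1 were named after their values were seen. A gene that the rule names is not reported here.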

Additional observations from a re-analysis of the deposited data

How the results depend on the processing

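Of 120 values of the 10 genes over 12 alternatives, 102 kept their direction and side of the threshold, 9 lost the call, 2 gained it and 7 changed sign, all 7 in genes that did not pass. SDI1 and LSU3 were lower in all 12. The number of the 10 that were lower was 3 when scaled by total counts alone, 5 with no filter or DESeq2, 4 with RLE factors, halved counts or the replicate block, and 2 to 4 with 1 library left out (2 without control replicate 3, CsCl replicate 1 or CsCl replicate 2); none was higher in any. Of all genes, 277 were lower and 177 higher. These became 180 lower with total counts alone, 518 lower and 301 higher with no filter, and 90 to 330 lower and 89 to 231 higher with 1 library left out. Of the 82 other list genes tested, 20 were lower and 2 higher. The number lower was 14 with total counts alone, 17 with the replicate block and 21 with RLE factors or halved counts. With 1 library left out it was 9 to 17. DESeq2 and the fit with no filter, which tested more of the list genes, gave 23 and 24. The number higher was 1 with DESeq2, 1 with the replicate block, 3 with no filter and 0 to 1 with 1 library left out.

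Changes of sign came from SLIM1 (0.031 with total counts alone, -0.036 to 0.010 with 1 library left out), LSU4 (-0.41 to 0.21), BGLU28 (-0.42 to 0.33) and BGLU30 (-0.14 to 0.51), the last 3 with 1 library left out, MYB28 (-0.00060 with no filter, -0.060 to 0.060 with 1 library left out), EIN3 (-0.0039 to 0.089) and GGCT2;2 (0.018 with total counts alone, -0.091 to 0.055 with 1 library left out). The cause was not tested. The differences between paralogs kept their sign with 1 library left out: -0.44 to -0.23 for LSU3 over LSU1, 0.32 to 0.72 for LSU4 over LSU2 and -0.95 to -0.78 for SDI1 over SDI2. Over all tested genes, same-numbered samples did not deviate together (r of -0.077, 0.039 and -0.0096). Of the 6 samples only CsCl replicate 2 correlated best with its own number. With 3 samples per group, these values cannot tell whether the numbers pair the samples. With the replicate block 210 genes were lower and 146 higher, and no call among the 10 genes changed. LSU4 and BGLU28 had the lowest counts of the 10 genes and the widest intervals, which reach from a fall to a rise. The part of depth in this was not tested.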
